A study of Mus musculus with 12 samples.

Results

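The genes described here encode the enzymes that make NAD in the liver, the methyltransferase that removes nicotinamide, and a pair of NAD-dependent deacetylases. They were the 10 rows of the count table named Nampt, Nnmt, Nadk, Nadsyn1, Naprt, Nmrk1, Qprt, Acmsd, Sirt1 and Sirt3, out of 56748 genes. RNA-seq measured them in the livers of 12 mice fasted for 24 h, with 4 livers of each of 3 genotypes. The control livers, called WT here, are labelled as triple floxed for CPT1A, CPT1B and CPT2. The single KO (SKO) livers are labelled as liver-specific KOs of CPT2, the mitochondrial carnitine palmitoyltransferase that fatty acids need to enter beta-oxidation. The double KO (DKO) livers are labelled as liver-specific KOs of ATF3, a stress-induced transcription factor, together with CPT2. The study made its liver KOs in C57BL6 lines by breeding floxed mice to Albumin-Cre mice, and the Albumin promoter is active in hepatocytes. The study describes the controls of its RT-qPCR on this model as floxed for Atf3 and Cpt2, which differs from the labels, and it calls the sequenced DKO mice male, whereas the labels give no sex. Age, litter and collection day of the mice were not given in the sources used here, and p-values measure the spread between the livers of a genotype.

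NAD carries electrons in fuel oxidation and is also consumed as a substrate by sirtuins and poly(ADP-ribose) polymerases. The liver can make it from tryptophan through the kynurenine pathway, from nicotinic acid, from nicotinamide riboside, or from nicotinamide by salvage. Qprt commits the tryptophan route to NAD by converting quinolinate, whereas Acmsd diverts the intermediate before quinolinate is formed. Naprt takes up nicotinic acid into the same route and Nadsyn1 amidates its last intermediate to NAD. Nmrk1 phosphorylates nicotinamide riboside, Nampt is the rate-limiting enzyme of salvage, and Nnmt methylates nicotinamide so that it is lost to salvage. Nadk phosphorylates NAD to NADP. Sirt1 is a mainly nuclear deacetylase and Sirt3 a mitochondrial one.

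Read totals were 14710304 to 20030055 per liver, and the limit for a gene without counts, 3 counts, was 0.150 to 0.204 CPM (read counts scaled to a common library size), which covers counting error only. Cpt2 counts were 1725 to 3098 for SKO and 1876 to 2468 for DKO, against 3658 to 4543 for WT. Atf3 had 17 to 39 counts in WT and 259 to 1056 in SKO livers, and in DKO livers 1 to 4 it had 164, 177, 265 and 5 counts. DKO liver 4 was thus the 1 DKO liver with fewer Atf3 counts than the WT livers, and leaving it out left DKO livers whose Atf3 counts were all above those of WT. These are counts per whole gene, so they do not show which exons were deleted. SKO liver 3 and DKO liver 4 had 18063 and 20855 Xist counts with 2 and 0 Y-linked counts (Uty, Kdm5d, Eif2s3y and Ddx3y summed), whereas the other 10 livers had 2741 to 4294 Y-linked counts and at most 19 of Xist. DKO liver 4 stood apart in the whole transcriptome, with a chi-square per degree of freedom of 194 to 231 against the other DKO livers, which differed from each other by 27.7 to 33.3. Test results for the 10 genes in DKO livers are therefore given with and without DKO liver 4. The share of ribosomal RNA was highest in DKO livers, at 1.40 to 2.80% of their counts, against 0.452 to 1.36% for WT and 0.713 to 1.46% for SKO, and its part in the DKO results was not tested.

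Levels of different genes were compared in FPKM, which corrects for gene length. In WT livers, Nnmt was the most abundant of the 10 genes at 148 ± 21.4 FPKM (SD, n = 4), and its range did not overlap that of Nadk, which came next at 63.8 ± 5.26 FPKM. Nadk, Naprt at 58.5 ± 8.14 FPKM and Qprt at 55.6 ± 2.79 FPKM followed each other with overlapping ranges. Below them came Nampt at 23.3 ± 4.51 FPKM and Sirt3 at 18.0 ± 1.10 FPKM, which overlapped with each other but not with Qprt or Nadsyn1. Nadsyn1 at 11.2 ± 1.54 FPKM, Nmrk1 at 11.0 ± 1.88 FPKM and Acmsd at 9.03 ± 3.55 FPKM overlapped in turn, and Sirt1 was lowest at 3.47 ± 0.317 FPKM. In SKO livers, Nnmt stood below Nadk, Naprt and Qprt at 46.8 ± 16.1 FPKM, with a range that overlapped that of Qprt, and Acmsd was last at 0.834 ± 0.182 FPKM, below Sirt1. In DKO livers, Nnmt stood second at 54.6 ± 43.4 FPKM, where liver 4 held 119 FPKM and the others 26.2 to 37.7 FPKM. The order of the 10 genes in each genotype was the same in CPM per kilobase.

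**Figure D1:**
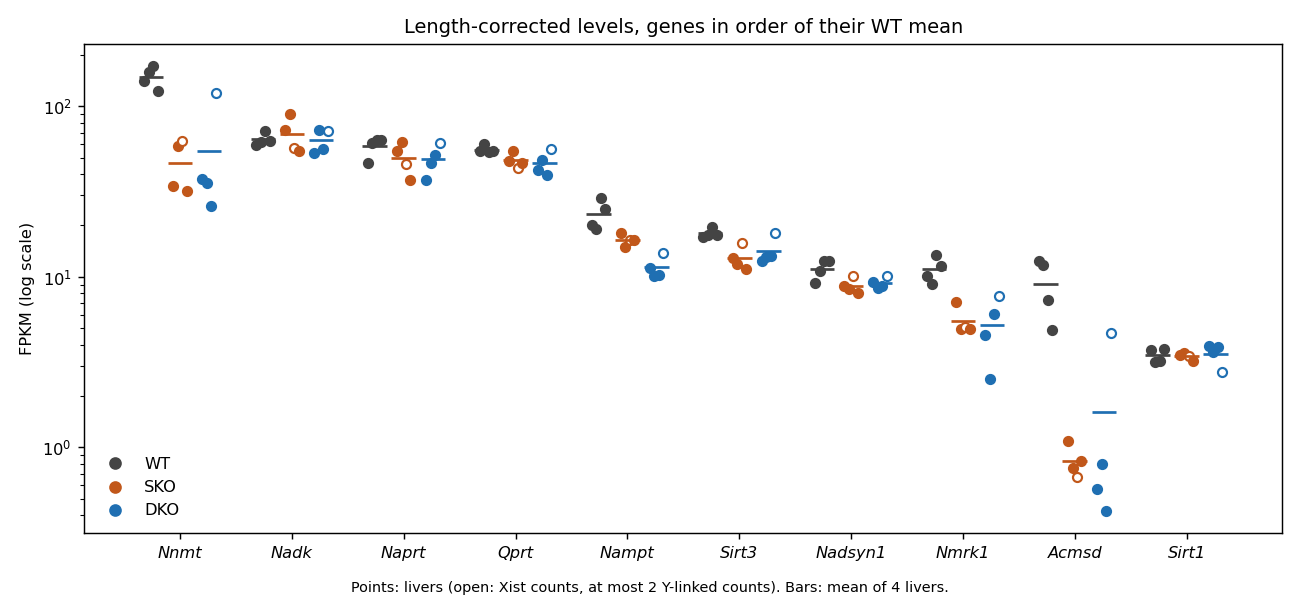
FPKM of the 10 genes on a log axis, ordered by their WT mean, for WT, SKO and DKO livers, with points for livers, bars for the mean of 4 livers and open circles for SKO liver 3 and DKO liver 4. Nnmt leads in WT at 148 FPKM, and Acmsd goes from 9.03 FPKM in WT to 0.834 FPKM in SKO livers.

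The comparison of SKO with WT livers sets livers labelled as KOs of CPT2 beside the triple floxed controls after a fast. Loss of CPT2 cannot be told apart here from any other difference between these mouse lines. All 10 genes passed the filter on low counts in each of the 3 comparisons. In SKO livers, 5 of the 10 genes fell and none rose, namely Acmsd, Nnmt, Nmrk1, Nampt and Sirt3. A gene was called at an adjusted p under 0.05, and by this rule 32.1% of the 14261 genes tested changed, 16.7% higher and 15.4% lower. The median log2 fold change of the 10 genes was -0.39, against 0.03 over all genes tested. In these 5 genes, every SKO liver lay below every WT liver, which held for 16.1% of all genes tested. SKO and WT livers overlapped in the other 5 genes. Without SKO liver 3, the shares over all 14475 genes tested were 32.5% changed, 17.3% higher and 15.2% lower.

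Acmsd had the largest change of the 10. It is an enzyme of liver and kidney, encoded on chromosome 1. Its levels were 33.4, 31.6, 19.8 and 13.1 CPM in WT livers and 2.99, 2.05, 1.82 and 2.30 CPM in SKO livers. The WT livers differed among themselves more for Acmsd than for any other of the 10 genes relative to the mean, yet the lowest WT liver was still above the highest SKO liver. The SKO mean was 9.35% of the WT mean, and the log2 fold change was -3.43 with a standard error (SE) of 0.31 (edgeR, adjusted p = 1.61e-05).

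Nnmt fell to 31.9% of its WT mean. The gene lies on chromosome 9 (GRCm38 chr9:48591877-48605153, minus strand). WT livers held 214, 239, 258 and 184 CPM and SKO livers 52.0, 88.8, 95.5 and 49.0 CPM. The 4 SKO livers formed no tight group, but all lay below the lowest WT liver. The log2 fold change was -1.65 (SE 0.22, edgeR adjusted p = 2.21e-04), and -1.82 among livers with Y-linked counts, which leaves out SKO liver 3.

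Nmrk1, the nicotinamide riboside kinase on chromosome 19 (GRCm38 chr19:18631950-18652428, plus strand), had 36.0, 31.9, 47.0 and 40.7 CPM in WT and 25.6, 17.5, 18.2 and 17.7 CPM in SKO livers. SKO liver 1 was the highest of its group. Nmrk1 fell to 50.8% of the WT mean, with a log2 fold change of -0.98 (SE 0.17, edgeR adjusted p = 9.39e-04).

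Nampt, on chromosome 12 (GRCm38 chr12:32819545-32853349, plus strand), had 97.9, 92.9, 139 and 120 CPM in WT and 88.7, 73.1, 80.0 and 81.1 CPM in SKO livers. The gap between the groups was narrow, from 88.7 to 92.9 CPM. The log2 fold change was -0.48 (SE 0.14, edgeR adjusted p = 0.0243). This call was lost without WT liver 3, without WT liver 4 and without SKO liver 2, where the adjusted p-values were 0.0708, 0.0647 and 0.0574. Over the 14 alternatives the adjusted p-value of Nampt was 0.0124 to 0.0708.

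Sirt3, on chromosome 7 (GRCm38 chr7:140863666-140882309, minus strand), had 97.6, 101, 111 and 100.4 CPM in WT and 74.4, 68.4, 90.6 and 64.6 CPM in SKO livers. SKO liver 3, with 2 Y-linked counts, was the highest of its group. The log2 fold change was -0.47 (SE 0.13, edgeR adjusted p = 0.0164), and the call was kept in each of the 14 alternatives.

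The other 5 genes, Nadsyn1, Qprt, Naprt, Nadk and Sirt1, did not pass the threshold in SKO livers. Nadsyn1 had 29.0 to 39.0 CPM in WT and 25.9 to 32.4 CPM in SKO livers, with a log2 fold change of -0.31 (95% interval -0.60 to -0.03, edgeR adjusted p = 0.0886). It passed without WT liver 1 (adjusted p = 0.0443, range over the alternatives 0.0443 to 0.220). Qprt had 136 to 152 CPM in WT and 111 to 140 CPM in SKO livers, with an interval of -0.44 to 0.06 on the log2 scale. The interval was -0.58 to 0.14 for Naprt. Nadk, at 214 to 255 CPM in WT and 199 to 323 CPM in SKO livers, had an interval of -0.24 to 0.47. Sirt1 had 16.2 to 19.2 CPM in WT and 16.7 to 18.2 CPM in SKO livers, and its interval was -0.29 to 0.27.

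**Figure D2:**
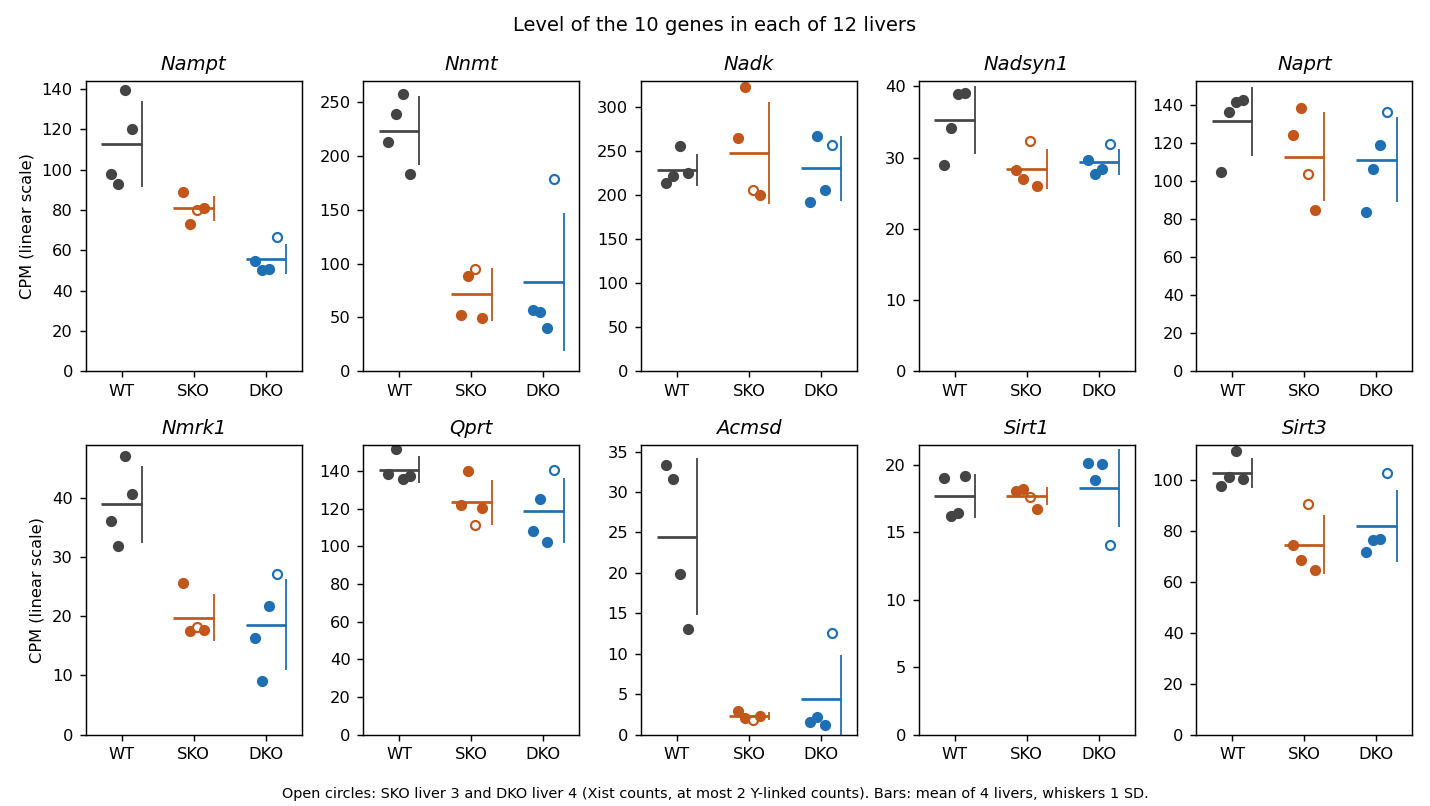
CPM of each of the 10 genes on linear axes from 0, with points for the 12 livers, bars for the mean of 4 livers, whiskers of 1 SD and open circles for SKO liver 3 and DKO liver 4. The SKO and DKO livers lie below all WT livers for Nampt, Nnmt, Nmrk1 and Acmsd, and DKO liver 4 is the highest DKO liver for each of these.

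Promoter sequences are shown for a salvage and a riboside gene that fell in SKO livers. RefSeq (GRCm38.p6) windows were examined for 7 of the 10 genes, as 9 windows of 300 bases, from 250 bases before the start to 50 after it. Nnmt and Naprt had none in the table used. Each CG dinucleotide is in capitals. The windows are chr12:32820085-32820384 for Nampt and chr19:18631766-18632065 for Nmrk1, both on the plus strand.
Nampt: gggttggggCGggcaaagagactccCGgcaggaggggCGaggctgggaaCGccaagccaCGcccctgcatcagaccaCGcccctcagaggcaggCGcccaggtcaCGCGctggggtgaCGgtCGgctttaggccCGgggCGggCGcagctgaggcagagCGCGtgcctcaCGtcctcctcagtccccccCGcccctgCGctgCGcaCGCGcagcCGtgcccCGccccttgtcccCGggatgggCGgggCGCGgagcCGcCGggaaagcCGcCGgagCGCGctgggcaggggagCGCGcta
Nmrk1: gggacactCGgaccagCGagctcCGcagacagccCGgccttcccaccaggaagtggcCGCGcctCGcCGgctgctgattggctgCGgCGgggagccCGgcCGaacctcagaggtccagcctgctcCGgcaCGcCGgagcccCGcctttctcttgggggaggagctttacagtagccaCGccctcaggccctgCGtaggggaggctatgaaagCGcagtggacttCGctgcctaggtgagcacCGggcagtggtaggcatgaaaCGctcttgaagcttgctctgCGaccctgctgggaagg
The Nampt window held 36 CG dinucleotides and 76.3% G or C, and 6.23% of the 32851 promoter windows had as many or more. The Nmrk1 window held 23 and 67.3%. The median of all windows was 7 CG dinucleotides and 52.7% G or C. The other genes' windows ran from 4 CG dinucleotides in the first of the windows of Nadk to 47 in that of Sirt1. The CRE (TGACGTCA) and AP-1 (TGANTCA) motifs, searched on both strands as letters that ATF and AP-1 factors are known to bind, were in none of the 9 windows and in 1.79% and 7.81% of all windows. The E-box CACGTG was in the second window of Nadk and in that of Sirt1, and in 7.15% of all windows.

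The comparison of DKO with WT livers covers livers labelled as having lost both ATF3 and CPT2, against the same WT livers. With all 4 DKO livers, Nampt and Nmrk1 fell, and none of the 10 genes rose. Over all 14448 genes tested 10.5% passed the threshold, 6.06% higher and 4.39% lower. DKO livers lay below all WT livers in 4 of the 10 genes, the other pair being Nnmt and Acmsd, which held for 9.05% of all genes tested. Without DKO liver 4, 6 genes passed, namely Nampt, Nmrk1, Nnmt, Acmsd, Qprt and Sirt3, all lower, while over all genes 5253 of 14634 tested (35.9%) passed in place of 1510, 18.4% higher and 17.5% lower.

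Nampt had 54.8, 50.4, 50.6 and 66.5 CPM in DKO livers, 49.3% of the WT mean. All 4 were below the lowest WT liver, at 92.9 CPM. In the fit Nampt fell by 50.2% (SE 0.16 on the log2 scale, edgeR adjusted p = 0.0110), its log2 fold change was -1.11 without DKO liver 4, and the call was kept in each of the 14 alternatives. Nmrk1 had 16.3, 9.13, 21.7 and 27.2 CPM. Its log2 fold change of -1.05 (SE 0.29) was close to the threshold (edgeR adjusted p = 0.0499), and the call was lost when any 1 liver other than DKO liver 4 was left out. Without DKO liver 4 the log2 fold change of Nmrk1 was -1.29 (adjusted p = 0.00217), and over the 14 alternatives the adjusted p-value was 0.00217 to 0.120.

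Nnmt and Acmsd did not pass with all 4 livers in this fit and passed without liver 4. Nnmt had 57.2, 54.6 and 40.2 CPM in DKO livers 1 to 3 and 178 CPM in liver 4, just below the lowest WT liver at 184 CPM. Its log2 fold change was -1.42 (SE 0.43, edgeR adjusted p = 0.0629) with all 4 livers and -2.14 (adjusted p = 4.59e-06) without liver 4, and the adjusted p-value over the 14 alternatives was 4.59e-06 to 0.151. Acmsd had 1.54, 2.21 and 1.17 CPM in DKO livers 1 to 3 and 12.5 CPM in liver 4, where the lowest WT liver had 13.1 CPM. The log2 fold change of Acmsd was -2.47 (SE 0.71, edgeR adjusted p = 0.0541) with all 4 livers and -3.91 (adjusted p = 1.99e-05) without liver 4, and the adjusted p-value over the 14 alternatives was 1.99e-05 to 0.133. Both genes also passed with all 4 DKO livers under 3 other settings. For Nnmt and Acmsd the adjusted p-values were 0.00661 and 0.0248 with DESeq2, 0.0261 and 0.0164 with edgeR without the filter on low counts, and 0.0372 and 0.0229 with edgeR on all 12 livers in one fit.

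Sirt3 had 71.5, 76.3 and 76.8 CPM in DKO livers 1 to 3 and 103 CPM in liver 4, which lay inside the WT range. Its log2 fold change was -0.31 with all 4 livers (edgeR adjusted p = 0.169) and -0.45 without liver 4 (adjusted p = 0.00387, range over the alternatives 0.00387 to 0.356). Qprt had 102 to 140 CPM in DKO livers, with a log2 fold change of -0.23 (edgeR adjusted p = 0.273) and -0.33 without liver 4 (adjusted p = 0.0306, range over the alternatives 0.0306 to 0.504). Nadsyn1 had 27.8 to 31.8 CPM and a 95% interval of -0.52 to 0.02 for its log2 fold change. The interval was -0.61 to 0.16 for Naprt, -0.29 to 0.34 for Nadk and -0.26 to 0.38 for Sirt1. With liver 4 left out, the intervals of Nadsyn1 (-0.56 to -0.03) and Naprt (-0.67 to -0.02, around -0.35 in place of -0.22) excluded 0, but neither gene passed the threshold (edgeR adjusted p = 0.0763 and 0.0903, range over the alternatives 0.0763 to 0.396 and 0.0903 to 0.731). Those of Nadk and Sirt1 were then -0.32 to 0.24 and -0.11 to 0.42. Sirt1 had 20.1, 18.9, 20.03 and 14.1 CPM in DKO livers, and liver 4 was here the lowest.

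**Figure D3:**
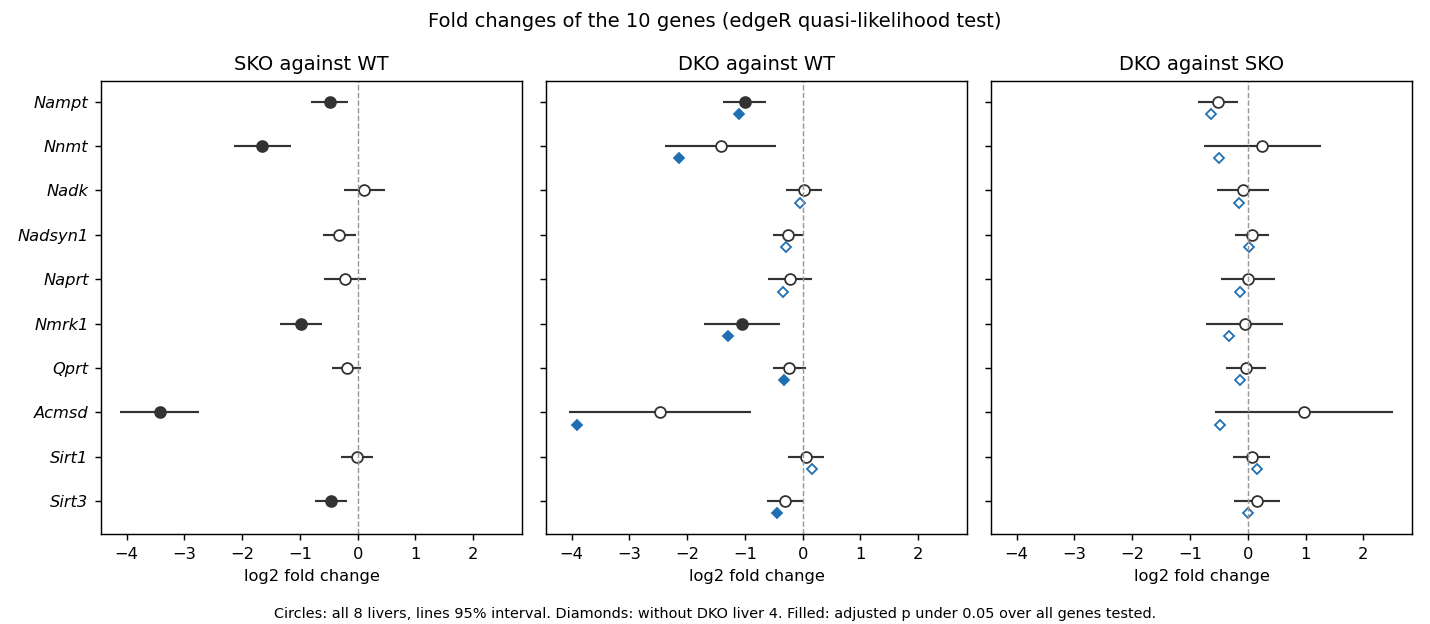
Log2 fold changes of the 10 genes in the 3 comparisons, with circles and 95% intervals for all 8 livers compared, blue diamonds for the fit without DKO liver 4 and filled symbols for an adjusted p-value under 0.05. Nnmt and Acmsd are filled in DKO against WT without liver 4, at -2.14 and -3.91, and no symbol is filled in DKO against SKO.

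The comparison of DKO with SKO livers sets livers labelled as KOs of both ATF3 and CPT2 beside those labelled as KOs of CPT2. None of the 10 genes passed the threshold with edgeR, with or without DKO liver 4, and DESeq2 called none of the 9 it tested. Over all genes, 0.0209% of 14363 passed. At an unadjusted p-value under 0.05 there was 1 of the 10, Nampt, by edgeR and by DESeq2, against 6.49% of all genes tested with edgeR. Nampt was also the 1 gene of the 10 in which every DKO liver lay below every SKO liver, a pattern that 1.86% of all genes tested had. DKO livers had 50.4 to 66.5 CPM and SKO livers 73.1 to 88.7 CPM. The log2 fold change of Nampt was -0.51 (95% interval -0.85 to -0.17, edgeR adjusted p = 0.526), and without DKO liver 4 it was -0.63 (edgeR adjusted p = 0.170). The adjusted p-value of Nampt in this comparison was 0.141 to 0.909 over the 14 alternatives.

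For the other 9 genes the intervals of DKO against SKO included 0. That of Acmsd was the widest, from -0.56 to 2.52 around 0.98, and without DKO liver 4 the value was -0.48 (95% interval -1.19 to 0.24). Nnmt likewise went from 0.25 (95% interval -0.77 to 1.26) to -0.49 (95% interval -1.05 to 0.07) without that liver. The Nmrk1 interval was -0.73 to 0.62 and that of Sirt3 -0.24 to 0.56, and those of Naprt and Nadk were -0.46 to 0.47 and -0.53 to 0.36. Narrower intervals were those of Nadsyn1, from -0.23 to 0.37, Sirt1, from -0.26 to 0.39, and Qprt, from -0.38 to 0.32. The 9 intervals again included 0 without DKO liver 4, with values of -0.32 for Nmrk1, 0.01 for Sirt3, 0.02 for Nadsyn1, 0.16 for Sirt1, -0.13 for Qprt, -0.13 for Naprt and -0.15 for Nadk.

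Ratios of 2 genes within a liver do not depend on the scaling of the library. The ratio of Qprt to Acmsd counts sets the enzyme that uses quinolinate beside the enzyme that diverts its precursor, and it was 4.14, 4.798, 6.84 and 10.5 in WT livers. SKO livers had ratios of 40.8, 68.3, 61.2 and 52.3, and DKO livers 70.2, 56.8, 87.3 and 11.2. Every SKO and DKO liver was above every WT liver, with DKO liver 4 just above WT liver 4. The ratio of Nampt to Nnmt counts, salvage beside methylation, was 0.458, 0.389, 0.540 and 0.654 in WT and 1.71, 0.823, 0.838 and 1.66 in SKO livers. DKO livers 1 to 3 had 0.959, 0.922 and 1.26, whereas DKO liver 4, at 0.373, was below all WT livers. The ratios restate the levels given above and were not tested. Qprt did not pass the threshold in SKO livers or with all 4 DKO livers. In SKO livers its log2 fold change was -0.19, beside -3.43 for Acmsd.

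**Figure D4:**
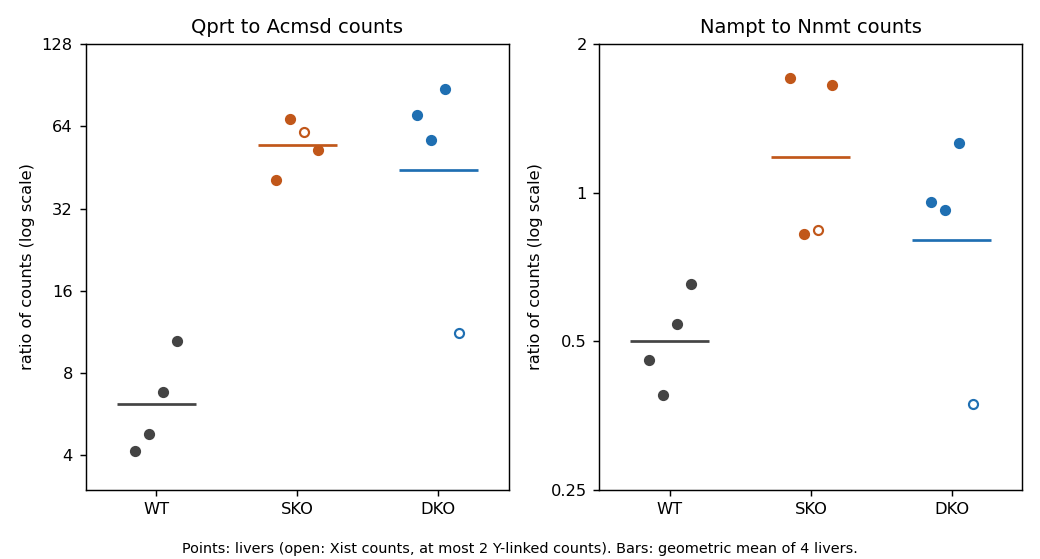
Ratios of Qprt to Acmsd counts and of Nampt to Nnmt counts on log axes, with points for livers, bars for the geometric mean of 4 livers and open circles for SKO liver 3 and DKO liver 4. The Qprt to Acmsd ratio is 4.14 to 10.5 in WT and 40.8 to 68.3 in SKO livers, and DKO liver 4 lies at 11.2.

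The libraries were made from whole liver, so fewer cells of a type and less RNA per cell cannot be told apart. Hepatocyte markers were abundant in every liver. Of 8 hepatocyte markers, 4 fell in SKO livers (Alb, Apob, Ttr and Serpina1a) and 1 in DKO livers (Serpina1a), or 5 without DKO liver 4, and none was at 0. Beside these 4 and 1 of 8, 15.4% and 4.39% of all genes tested fell, and 17.5% in DKO livers without liver 4. Their summed level was 81293 to 100989 CPM in WT and 47317 to 75624 CPM in SKO livers. It was 45054 to 55553 CPM in DKO livers 1 to 3 and 98307 CPM in DKO liver 4. Of 5 cholangiocyte markers, 4 were tested. Sox9 and Spp1 fell in SKO livers, and Epcam and Krt19 did not pass. The sum of the 5 was 7.41 to 14.4 CPM in SKO livers against 27.9 to 33.3 CPM in WT livers. Spp1 made up most of the WT sum, at 20.1 to 25.5 CPM. Sox9, a transcription factor of bile duct cells, also fell in DKO livers (log2 fold change -1.71, edgeR adjusted p = 0.0195), where the sum of the cholangiocyte markers was 9.60 to 18.7 CPM in livers 1 to 3 and 31.1 CPM in liver 4. Spp1 and Sox9 fell in DKO livers when liver 4 was left out. Of 8 macrophage markers, Cd68 rose in SKO and Marco fell in DKO livers, and the sums were 222 to 455 CPM in WT, 208 to 507 CPM in SKO and 129 to 449 CPM in DKO livers. Without DKO liver 4, 6 macrophage markers fell and 1 rose in DKO against WT livers, where 17.5% and 18.4% of all genes tested did. The macrophage sum was 129, 201 and 191 CPM in DKO livers 1 to 3 and 449 CPM in liver 4. The part of these markers in the results above was not tested.

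Most other genes of tryptophan breakdown fell in SKO livers as well. Of the 10 genes of the kynurenine list, 9 were tested, 7 fell and none rose, with a median log2 fold change of -1.66 against 0.03 over all genes, of which 15.4% fell. Ido2, a dioxygenase that opens the tryptophan ring, had 68.4 to 104 CPM in WT and 2.20 to 10.5 CPM in SKO livers, a log2 fold change of -4.10 (SE 0.42, edgeR adjusted p = 3.24e-05). Haao, which makes the intermediate that Acmsd or quinolinate formation uses, had 299.96 to 347 CPM in WT and 28.8 to 55.9 CPM in SKO livers, with a log2 fold change of -3.06 (SE 0.21, edgeR adjusted p = 2.58e-06).
Afmid, the formamidase that releases kynurenine, and Kyat1, a transaminase on a side branch, fell with log2 fold changes of -2.79 and -2.48. Kynu and Kmo, on the path from kynurenine to Haao, and Aadat, another transaminase, were at -1.66, -0.98 and -0.94. Tdo2, the main hepatic enzyme of the first step, had 2763 to 3424 CPM in WT and 2554 to 3076 CPM in SKO livers and did not pass the threshold (log2 fold change -0.23, edgeR adjusted p = 0.233). Ido1 was at 0 in all 12 livers.

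In DKO livers, 2 of the 9 kynurenine genes fell, Kyat1 and Aadat, with log2 fold changes of -1.68 and -0.78 (-2.48 and -0.86 without DKO liver 4), against 4.39% of all genes tested. Without DKO liver 4 it was 8 of 9, against 17.5% of all genes tested. DKO liver 4 held 440 CPM of Haao, above the WT range, while DKO livers 1 to 3 held 78.0, 77.4 and 88.5 CPM. The same liver held 60.6 CPM of Ido2 against 5.39 to 10.7 CPM in the other DKO livers. None of the 9 genes passed the threshold in DKO against SKO livers.

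Nnmt draws its methyl group from S-adenosylmethionine, and its product is oxidized by aldehyde oxidases. Of 11 genes of nicotinamide clearance and methyl donor supply, 8 fell and 1 rose in SKO livers, where 15.4% of all genes fell and 16.7% rose, and their median log2 fold change was -0.68. Aox3, an aldehyde oxidase, fell by 4.32 on the log2 scale (SE 0.58, edgeR adjusted p = 1.94e-04), from 457 to 606 CPM in WT to 7.73 to 66.3 CPM in SKO livers. Bhmt, which remethylates homocysteine from betaine, fell by 3.07 (SE 0.33) and had 5280 to 7827 CPM in WT and 367 to 1299 CPM in SKO livers. Some of the genes that fell use S-adenosylmethionine rather than supply it, namely Gamt, Gnmt and Pemt, with log2 fold changes of -3.10, -2.09 and -0.68. Mat1a, the hepatocyte synthase of S-adenosylmethionine, was at -0.56, Ahcy at -0.48 and Cyp2e1, which oxidizes nicotinamide, at -0.68. Mat2a, the synthase of other cell types, rose by 0.52 (SE 0.16, edgeR adjusted p = 0.0281).
In DKO livers, 2 of the 11 fell, Aox3 and Bhmt, with log2 fold changes of -2.35 and -1.30 (-3.49 and -1.29 without DKO liver 4), against 4.39% of all genes tested. Without DKO liver 4 it was 8 lower and 2 higher, against 17.5% and 18.4% of all genes tested. None of the 11 passed in DKO against SKO livers, and 1, Bhmt, was higher in DKO livers when both SKO liver 3 and DKO liver 4 were left out (log2 fold change 2.11, edgeR adjusted p = 0.0448). In that fit 0.146% of 14358 genes passed, 0.0905% higher and 0.0557% lower. Aox3 had 39.0, 63.5 and 36.1 CPM in DKO livers 1 to 3 and 264 CPM in DKO liver 4. Gamt had 16.7, 7.54 and 21.6 CPM in DKO livers 1 to 3 and 143 CPM in DKO liver 4, above the WT range of 63.0 to 87.0 CPM.

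**Figure D5:**
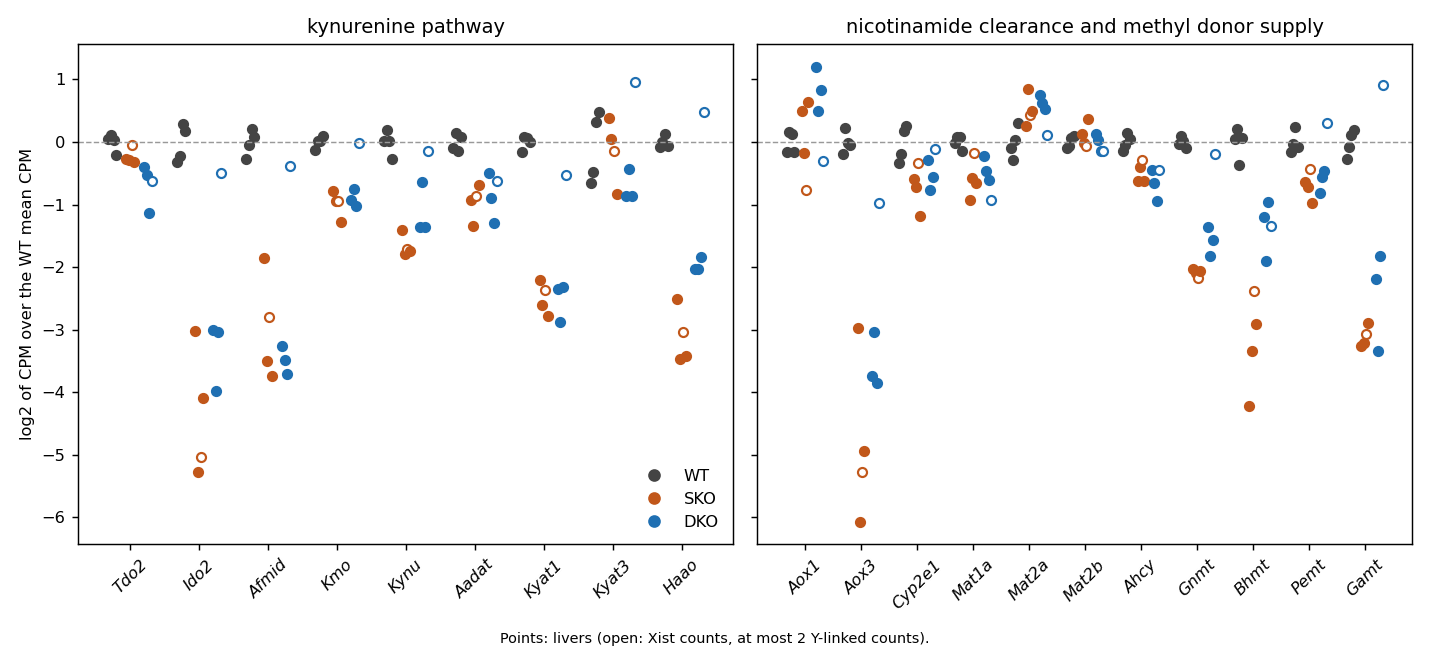
Log2 of the CPM over the mean CPM of WT livers for 9 genes of the kynurenine pathway and 11 genes of nicotinamide clearance and methyl donor supply, with points for the 12 livers and open circles for SKO liver 3 and DKO liver 4. Haao and Gamt in DKO liver 4, at 440 and 143 CPM, lie above the WT livers.

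Of 11 other genes of NAD and NADP synthesis and transport, 8 were tested, and 1 fell and 1 rose in SKO livers, against 15.4% and 16.7% of all genes, with a median log2 fold change of -0.01. In DKO against WT livers 1 fell and none rose, against 4.39% and 6.06% of all genes, and without DKO liver 4 it was 4 lower and 1 higher, against 17.5% and 18.4%. The 4 were Nadk2, Slc25a51, Pnp and Nudt12, with log2 fold changes of -1.01, -0.75, -0.45 and -0.40 without that liver, and Nt5e was the gene that was higher, at 0.53. With all 4 DKO livers Nt5e was at 1.23 and did not pass (edgeR adjusted p = 0.0935). Nadk2, the mitochondrial NAD kinase, had 225 to 236 CPM in WT, 103 to 146 CPM in SKO and 103 to 176 CPM in DKO livers, and its log2 fold changes were -0.84 and -0.82 (SE 0.13 and 0.17, edgeR adjusted p = 4.90e-04 and 0.0229). The cytosolic kinase Nadk, given above, did not pass in either comparison, and the difference between the kinases was not tested. Nt5e, the ecto-enzyme that dephosphorylates nicotinamide mononucleotide and AMP, rose by 1.48 in SKO livers (SE 0.32, edgeR adjusted p = 0.00459), or by 0.97 without SKO liver 3. SKO liver 3 had the most Nt5e of its group at 49.5 CPM and DKO liver 4 the most of its own at 45.7 CPM, against 11.0 to 17.3 CPM in the other DKO livers. Nmrk2, the other riboside kinase, was at no more than 0.156 CPM in any liver.

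Among enzymes that consume NAD, 12 of 13 were tested, 4 fell in SKO livers and none rose, with a median log2 fold change of -0.20. Over all genes tested 15.4% fell, and without SKO liver 3 the count of the list was 3, against 15.2% of all genes, since Parp10 was no longer called (edgeR adjusted p = 0.0707). The 4 were Parp14, Parp12, Parp9 and Parp10, at -1.16, -0.86, -0.61 and -0.37 on the log2 scale, which are known as interferon-responsive members of the family. Parp1, the main DNA damage polymerase, was at -0.24 (edgeR adjusted p = 0.203) and Cd38, an NAD glycohydrolase, at 0.27 (adjusted p = 0.433). None of the list passed the threshold in DKO against WT livers, and 3 fell without DKO liver 4, namely Parp14, Parp12 and Parp9, against 17.5% of all genes tested.

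Of the 5 sirtuins other than Sirt1 and Sirt3, 2 fell in SKO livers and none rose, against 15.4% and 16.7% of all genes, with a median log2 fold change of 0.12. Sirt7, the nucleolar sirtuin, had 58.5 to 78.1 CPM in WT, 30.5 to 35.2 CPM in SKO and 31.9 to 49.4 CPM in DKO livers, with no overlap of WT with the others. The log2 fold change was -0.99 in SKO (SE 0.12, edgeR adjusted p = 1.16e-04) and -0.72 in DKO livers (SE 0.16, adjusted p = 0.0250), or -0.85 without DKO liver 4. Sirt4, a mitochondrial sirtuin like Sirt3 and Sirt5, fell by 0.53 in SKO livers (edgeR adjusted p = 0.0417), and this call was lost without SKO liver 3 (adjusted p = 0.0897). Sirt2, Sirt5 and Sirt6 did not pass in any of the comparisons with all livers, and Sirt5 was higher in DKO than in WT livers without DKO liver 4 (log2 fold change 0.48, edgeR adjusted p = 0.0129).

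The genes whose pattern over the 12 livers was most like that of Acmsd, Nnmt and Nmrk1, the 3 genes with the smallest p-values in SKO livers, were taken from 9790 genes with a mean of at least 5 CPM. For Acmsd these were Adh4, Ifit1, Lactb, Mto1 and Gm5424, with Pearson's r of 0.976 to 0.972 and, for Adh4, a Spearman's rho of 0.909. Adh4, a liver alcohol dehydrogenase, had means of 85.7 CPM in WT, 24.1 CPM in SKO and 31.5 CPM in DKO livers. For Nnmt they were Tm2d2, Sdf2l1, Etnk2, Rpn2 and Cyp3a13, with r of 0.973 to 0.960, of which Etnk2, an ethanolamine kinase, had means of 663, 145 and 261 CPM and 742 CPM in DKO liver 4. For Nmrk1 they were Ing1, Hsd3b2, Cyp2d37-ps, Fam47e and Sbk1, with r of 0.953 to 0.932. Without DKO liver 4 the r of Adh4, Tm2d2 and Ing1 was 0.976, 0.972 and 0.969. These correlations describe livers that fall into genotypes, and both values of a point come from the same library.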

How the data were processed

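RNA of frozen livers was extracted with TRIzol, then RNeasy columns, and Novogene prepared the libraries. The submitters' processing notes name HISAT2 and GRCm38 or mm10, and the counting program is not given in the sources used here. Of 52073 genes of the table with an ID in GENCODE vM21 (GRCm38), 1435 had the same coordinates as there, and 0 of the 10 genes did. Gene positions printed here are from GENCODE vM21 and promoters from RefSeq GRCm38.p6. They are not the coordinates given with the counts. Reads counted per gene, deposited as raw counts with no scaling, were used for all tests, and the deposited FPKM of each gene was used to compare levels between genes. The deposited fold changes and p-values of the authors' own comparisons were not used.

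Each pair of genotypes was fitted on all genes with edgeR 4.0.16 in R 4.3.3 (TMM within the 8 livers, filterByExpr, quasi-likelihood test, two-sided, Benjamini-Hochberg over all genes tested, threshold 0.05). The fit was checked on counts simulated from the WT and SKO livers with a common dispersion. That check did not cover the DKO livers or a liver that stands apart. SE is the log2 fold change over the root of F, and intervals are 95%. CPM used TMM over all 12 livers. Likeness used log2 CPM with a prior count of 2. Alternatives were DESeq2 1.42.0, RLE normalization, no filter, all 12 livers in one fit, the replicate number as a block, livers with Y-linked counts, and each liver left out. Nnt has several IDs, and the row with the most counts was used. The 10 genes and the lists were chosen with earlier results of these data known. The text could name the 10 genes, list genes that passed in any comparison or mark a list's extremes or absences, the 5 genes most like each of 3 members, and genes for checks of genotype and sex. Parp1, Cd38, Nnt, Sirt2, Sirt5 and Sirt6 were named after their values were seen. The promoter of Acmsd is not reported here.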

Additional observations from a re-analysis of the deposited data

Results flagged for a closer look

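The 10 genes gave 30 sets of 4 livers and the ratios 6 more, and in 5 of these 36 sets the highest or lowest liver lay farther from its group than Dixon's critical value for 4 samples allows, where chance gives about 1 in 20, or 1.8. DKO liver 4 made up 3 of the 5, with 178.376 CPM of Nnmt against 40.2 to 57.2 CPM in the other DKO livers, 12.513 CPM of Acmsd against 1.17 to 2.21 CPM, and 102.819 CPM of Sirt3 against 71.5 to 76.8 CPM. WT liver 1 had 104.597 CPM of Naprt, below the 136 to 142 CPM of the other WT livers. SKO liver 1 had 25.6371 CPM of Nmrk1, above the 17.5 to 18.2 CPM of the other SKO livers. What set these livers apart was not tested.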

How the results depend on the processing

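In SKO against WT livers, 5 of the 10 genes passed in the main setting and in each setting that kept all livers or those with Y-linked counts, and 4 to 6 when 1 liver was left out. In DKO against WT livers, 2 passed, against 4 with DESeq2, 4 without the filter, 4 with all 12 livers in one fit, 6 with livers that have Y-linked counts (all but DKO liver 4) and 1 to 6 when 1 liver was left out. Over all genes, DKO against WT gave 1510 calls in the main setting, 2509 with DESeq2, 5253 with livers that have Y-linked counts and 244 to 5253 when 1 liver was left out. DKO against SKO gave 3 calls over all genes, 87 with DESeq2, 35 without the filter, 21 with livers that have Y-linked counts and 0 to 15 when 1 liver was left out. The cause of these moves was not tested.

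The titles do not say whether the replicate number marks a shared litter or day. Of 12 same-numbered pairs, 3 had a correlation of deviations over 0.1 (range -0.435 to 0.157). In 1 of 12 cases a liver correlated best with its own number. SKO liver 3 and DKO liver 4, the livers with next to no Y-linked counts, correlated at 0.520. Such differences can hide a pairing, so this check cannot decide whether livers were paired. The replicate block left 5 and 2 of the 10 genes called against WT, and gave 691 calls over all genes in DKO against WT and 0 in DKO against SKO. No called value of the 10 genes changed sign in any setting. With 4 livers per genotype, the intervals of DKO against SKO were widest for Acmsd and Nnmt.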

Other observations

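Markers of other liver cells were measured beside the NAD genes. None of 6 endothelial markers passed the threshold in any comparison, and their summed level was 152 to 333 CPM in WT, 197 to 270 CPM in SKO and 181 to 259 CPM in DKO livers. Of 6 stellate cell markers, Dcn, a matrix proteoglycan, rose in SKO livers (log2 fold change 0.61, edgeR adjusted p = 0.00630), which is 1 of 6 where 16.7% of all genes rose. Dcn was also higher in DKO than in WT livers without DKO liver 4 (log2 fold change 0.43, edgeR adjusted p = 0.0150), where 18.4% of all genes were. The sums were 162 to 194 CPM in WT, 221 to 315 CPM in SKO and 207 to 265 CPM in DKO livers. Dcn made up most of them, at 105 to 131 CPM in WT, 140 to 208 CPM in SKO and 146 to 174 CPM in DKO livers. Of 6 lymphocyte markers at most 4 and of 5 neutrophil markers 1 had enough counts to be tested with all livers (2 in DKO against WT without DKO liver 4), and none passed. No adipocyte marker had enough counts to be tested, and their sum was at most 0.674 CPM. Among them, Plin1 was at 0 CPM in WT, 0.195 to 0.561 CPM in SKO and 0 to 0.145 CPM in DKO livers. Adipocytes also express Nnmt, and their part in its level was not tested. Nnt, the mitochondrial transhydrogenase that links NADH and NADPH, had 1.52 to 2.93 CPM over the 12 livers and did not pass in any comparison.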
